A study of Mus musculus with 4 samples.

Results

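Genes of the thick ascending limb, the distal tubule and the collecting duct were measured in glomerular RNA of mice with and without guanylyl cyclase A (GC-A), which binds the natriuretic peptides of the heart. The list held 38 genes, taken by name. It was chosen with earlier results of these data known, so the shares of all genes set beside its counts are no test. A gene was measured where the array's annotation gave its symbol alone to a probe set, and the brightest such probe set by mean stood for the gene. In all, 35 of the 38 were measured, and Trpv5, Klhl3 and Atp6v1g3 were not analysed here. Of the 35, 34 were among the 9097 genes of the brighter 50% of the 18193 genes with a probe set, and these 34 were counted. On the WT control array alone 5 of them (Bsnd, Slc4a9, Foxi1, Kcne1 and Muc1) lay under the brightness limit, and Bsnd did so on both WT arrays. These 5 passed through the arrays where they were higher, so counts and medians below that hold them describe the genes that passed. Elf5 was dimmer and is given by level alone.

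The RNA came from glomeruli of male mice, with 1 Affymetrix array for each of 4 groups. All 4 groups had undergone uninephrectomy. WT control mice were wild type and KO control mice carried a systemic knockout of GC-A, and both received a continuous subcutaneous infusion of 2% ethanol on a normal diet. WT ALDO and KO ALDO mice, of the same genotypes, were given aldosterone together with a diet of 6% salt over 3 weeks. The labels do not state the strain, the age, the knockout allele or whether an array held RNA of 1 mouse or of a pool. Each group had 1 array, so nothing was replicated or tested: every difference below compares single arrays, and their number limits its precision.

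The thick ascending limb takes up sodium, potassium and chloride together from the tubule fluid and does not let water follow. The distal convoluted and connecting tubules take up sodium chloride, calcium and magnesium, and in the collecting duct principal cells handle sodium and water while intercalated cells secrete acid or bicarbonate. Aldosterone acts on these last segments, and natriuretic peptides oppose sodium uptake in the kidney. These segments lie outside the glomerular tuft. In such bulk RNA, fewer cells of a type cannot be told apart from less RNA per cell.

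Promoter sequences of 6 genes are shown because the results turn on them. Rhcg, Slc26a4 and Trpm6 were at least 2-fold higher in KO control, and Slc12a1 and Fxyd4 were lower in KO under both treatments. Atp6v1b1, a proton pump subunit gene listed here under intercalated cells as Rhcg was, differed little. Each sequence is the 250 bases before the gene's start in RefSeq (GRCm38.p6), written 5′ to 3′ in the direction of the gene.
Rhcg, chr7:79617658-79617907, - strand: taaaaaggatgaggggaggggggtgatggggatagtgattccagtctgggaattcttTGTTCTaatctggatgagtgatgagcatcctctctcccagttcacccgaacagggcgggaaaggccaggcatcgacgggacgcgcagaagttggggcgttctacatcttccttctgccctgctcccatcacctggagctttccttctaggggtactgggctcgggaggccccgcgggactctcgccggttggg
Slc26a4, chr12:31559985-31560234, - strand: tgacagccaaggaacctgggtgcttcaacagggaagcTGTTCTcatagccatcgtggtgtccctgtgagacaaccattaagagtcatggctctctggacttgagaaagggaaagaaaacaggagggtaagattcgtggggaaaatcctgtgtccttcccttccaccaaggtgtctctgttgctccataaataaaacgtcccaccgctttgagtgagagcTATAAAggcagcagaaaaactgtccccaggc
Trpm6, chr19:18749480-18749729, + strand: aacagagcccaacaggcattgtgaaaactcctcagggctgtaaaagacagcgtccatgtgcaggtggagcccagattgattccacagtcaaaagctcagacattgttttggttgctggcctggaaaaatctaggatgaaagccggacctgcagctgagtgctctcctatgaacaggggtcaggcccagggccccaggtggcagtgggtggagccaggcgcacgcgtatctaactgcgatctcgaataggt
Slc12a1, chr2:125152350-125152599, + strand: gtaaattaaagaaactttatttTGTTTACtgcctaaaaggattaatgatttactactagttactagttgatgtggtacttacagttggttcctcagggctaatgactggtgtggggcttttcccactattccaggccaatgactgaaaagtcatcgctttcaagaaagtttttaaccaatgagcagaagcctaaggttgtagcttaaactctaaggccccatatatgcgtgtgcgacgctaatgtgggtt
Fxyd4, chr6:117937336-117937585, - strand: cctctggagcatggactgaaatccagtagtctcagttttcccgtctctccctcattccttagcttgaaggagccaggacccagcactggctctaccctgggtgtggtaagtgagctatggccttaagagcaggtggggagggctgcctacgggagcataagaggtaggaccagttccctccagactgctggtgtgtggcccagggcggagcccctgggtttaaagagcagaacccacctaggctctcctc
Atp6v1b1, chr6:83742767-83743016, + strand: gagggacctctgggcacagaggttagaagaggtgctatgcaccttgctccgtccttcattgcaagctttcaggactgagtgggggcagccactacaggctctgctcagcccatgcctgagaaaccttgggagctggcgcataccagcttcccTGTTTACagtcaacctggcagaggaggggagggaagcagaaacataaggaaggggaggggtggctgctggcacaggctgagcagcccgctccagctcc
Capitals mark matches, on either strand, to 3 motifs: TGTTTAC, a core that forkhead factors such as Foxi1 can bind, AGAACA, a half-site of steroid receptors, and TATAAA, the TATA box. No matches overlap in these 6 sequences.

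RefSeq promoters were found for 29 of the 38 genes (36 promoters). The forkhead core stood in those of Atp6v1b1, Avpr2, Egf and Slc12a1, against 3.17% of all 32851 promoters of the same length. The steroid receptor half-site stood in those of Avpr2, Kcnj1, Kcnj10, Rhcg and Slc26a4, against 16.1% of all promoters. Matches to TATAAA, on either strand and at any place in the window, stood in those of 7 genes (Avpr2, Ckmt1, Kcnj16, Muc1, Slc12a3, Slc26a4 and Trpv5), against 12.4% of all. Those of Avpr2 and Ckmt1 were on the opposite strand, and the Avpr2 match shared a base with a half-site. These matches describe letters in a window, and no binding was measured.

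Values are probe set intensities, scaled by the authors to a trimmed mean of 500.003 on each array, and array medians ran from 89.5 to 103. Differences are in log2(intensity + 16), where 1 is a 2-fold difference. The knockout labels could not be checked, since Npr1, which encodes GC-A, was dim on all arrays and the place of its probe set relative to the deletion is not given. Npr1 had 92.6 on the WT control array, 108 on KO control, 60.5 on WT ALDO and 23.4 on KO ALDO, so under control treatment it was not lower on the array labelled KO. All 7 measured podocyte markers and all 14 proximal tubule markers were among the brighter genes, as were the 34 counted genes, so the RNA held both glomerular and tubular transcripts. The summed intensity of the proximal tubule markers ran from 261078 in KO ALDO to 306440 in WT control, and that of the podocyte markers from 21371 in KO control to 28024 in KO ALDO. As a sign of RNA quality, the 3′ over 5′ intensity ratio was 1.67 and 1.61 for beta-actin on the KO arrays and 1.86 and 1.87 on the WT arrays. For Gapdh it was 0.741 and 0.744 against 0.785 and 0.778. These ratios moved with genotype, and their part in the genotype differences below was not tested.

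**Figure D1:**
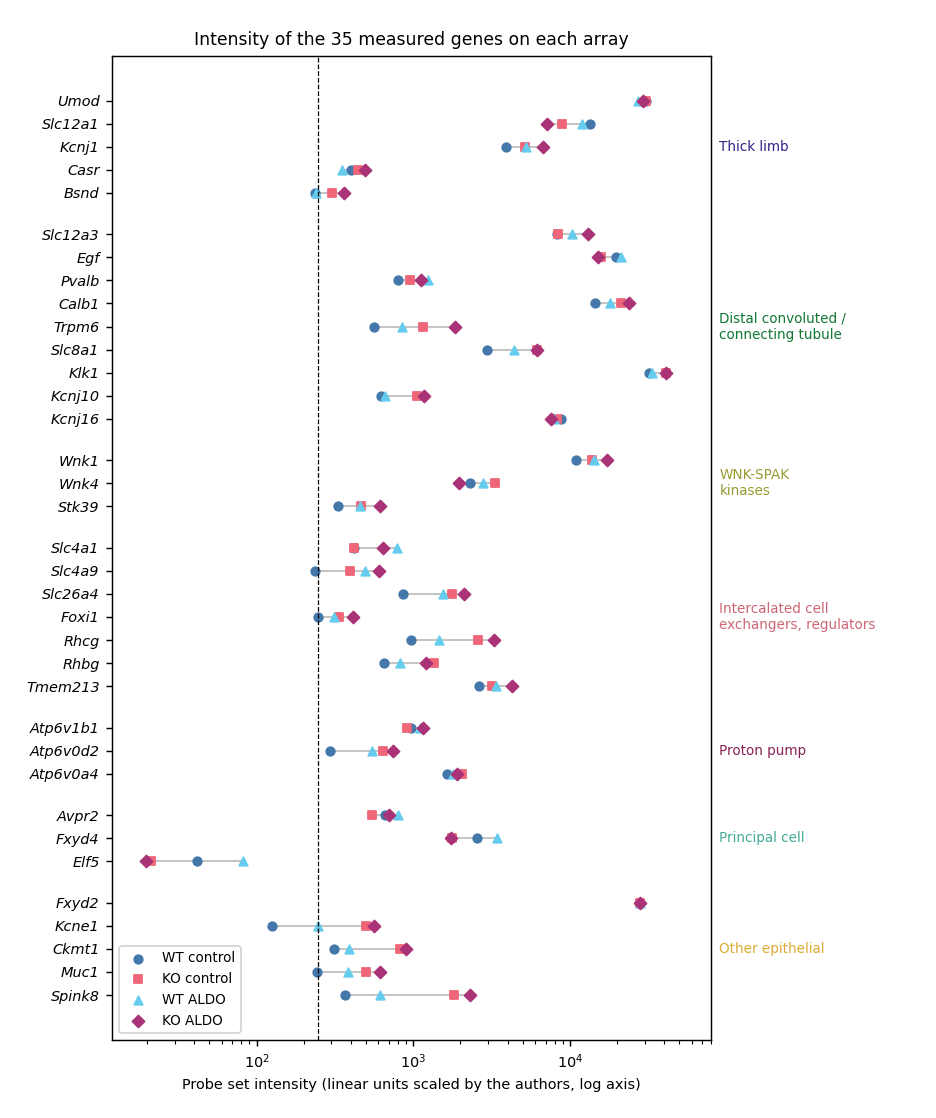
Intensity (log axis) of the 35 measured genes on each of the 4 arrays, with 1 symbol per array and the genes ordered by segment. The dashed line is the intensity of 247 above which genes were counted. Kcne1 and Spink8 show the widest spread among the counted genes, with WT control lowest, and Fxyd2 the narrowest.

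The first genotype comparison was of KO control with WT control. Of the 34 counted genes 9 were at least 2-fold higher in KO control, against 0.967% of all 9097 genes, and 0 were 2-fold lower, against 0.176%. They were the serine protease inhibitor family gene Spink8, the potassium channel subunit Kcne1, the ammonia transporters Rhcg and Rhbg, the mitochondrial creatine kinase Ckmt1, the proton pump subunit Atp6v0d2, the sodium-calcium exchanger Slc8a1, the anion exchanger Slc26a4 and the magnesium channel Trpm6. In all, 26 of 34 were above 0 and 8 below (49.7% and 50.3% of all genes were), and the median was 0.37, where that of all genes was -0.00. Because the list was chosen with earlier results known, these shares of all genes do not test it. The lowest were the cotransporter Slc12a1 (-0.60), the sodium pump regulator Fxyd4 (-0.53) and Egf (-0.31).

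Several of these stood close to the 2-fold line, with Trpm6 at 1.01 and Slc26a4 and Rhbg at 1.04 just past it and the mucin gene Muc1 at 0.99 just short. With each array centred on its median, which lowered the median of all genes to -0.11 here and to -0.13 under ALDO, 4 of the 34 remained past 2-fold. That centring also took the share of higher genes among all genes past 2-fold from 84.6% to 71.3% in this comparison and from 78.2% to 57.4% under ALDO. A pseudocount of 64 left 5. A further bright probe set was present for 13 genes, and for 12 of them its sign was the same.

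KO ALDO was set against WT ALDO to compare the genotypes under aldosterone and salt. Of the 34 genes 5 were at least 2-fold higher in KO ALDO, against 1.26% of all genes, and 0 were 2-fold lower, against 0.352%. All 5 were also past 2-fold in KO control, where 0.539% of all genes were past 2-fold under both treatments: Spink8 (1.90), Ckmt1 (1.18), Rhcg (1.16), Kcne1 (1.13) and Trpm6 (1.12). In all, 25 of 34 were above 0 and 9 below, against 51.3% and 48.7% of all genes, and the median was 0.35 against 0.01. Fxyd4 (-0.99), Slc12a1 (-0.74) and the kinase Wnk4 (-0.52) were lowest. With each array centred on its median, 3 were 2-fold higher and Fxyd4 was 2-fold lower (-1.13). With a gene's probe sets averaged, 2 of the 34 were past 2-fold.

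These genotype comparisons share no array. Of the 34 genes 24 were above 0 in both (34.8% of all genes were), 7 were below 0 in both (33.8%) and 3 went opposite ways. Across the 34 genes, which share their arrays and their scaling and are not independent, Pearson's r between the 2 differences was 0.877 and Spearman's rho 0.841, and across all 9097 genes they were 0.590 and 0.522. For 18 genes both KO arrays lay above both WT arrays, against 25% of all genes, and for 3, namely Slc12a1, Egf and Fxyd4, both KO arrays lay below both WT arrays, against 23.7%. WT control was the lowest array for 23 of the 34 (28.6% of all genes) and KO ALDO the highest for 22 (33.5%).

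**Figure D2:**
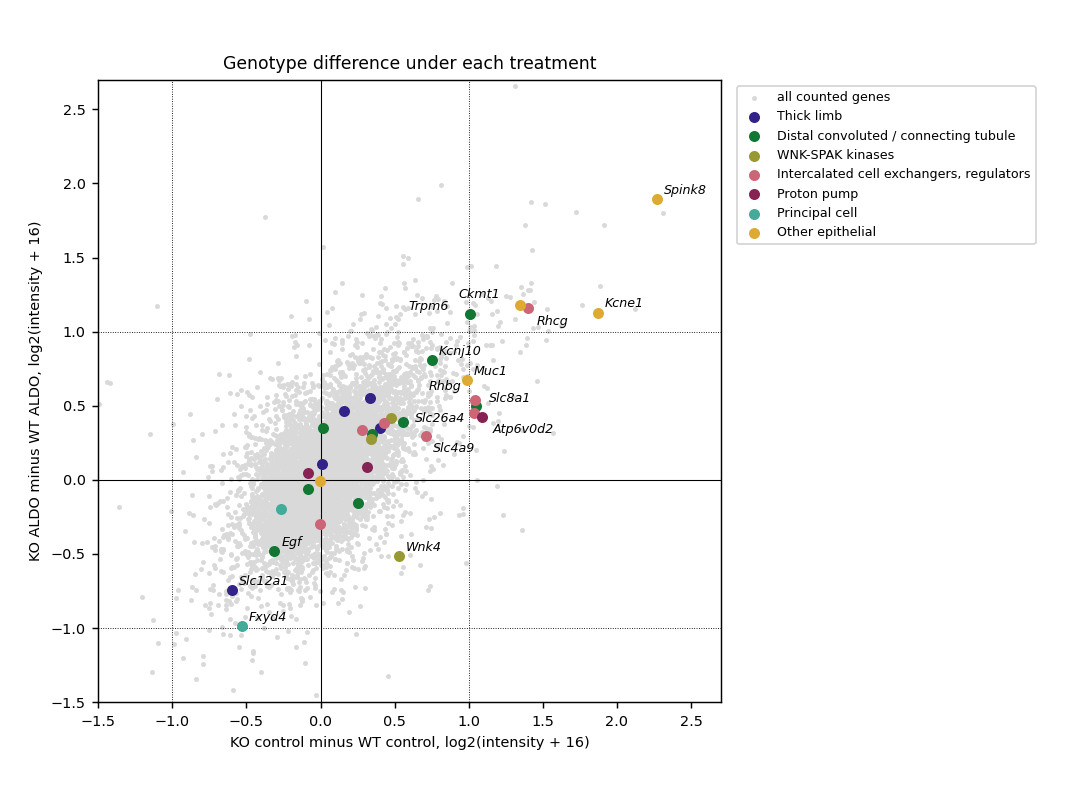
Difference between KO and WT in log2(intensity + 16) under control treatment (horizontal) and under ALDO (vertical). Coloured points are the 34 counted genes by segment, grey points all 9097 genes (11 lie outside the axes) and dotted lines mark 2-fold. Spink8 lies at 2.27 and 1.90, while Slc12a1 and Fxyd4 lie below 0 on both axes and Wnk4 is above 0 under control treatment and below 0 under ALDO.

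Among thick limb genes, Slc12a1 encodes the furosemide-sensitive sodium-potassium-chloride cotransporter, the main route of salt uptake in this segment. Its intensity was 13536 on the WT control array, 8941 on KO control, 11951 on WT ALDO and 7129.9 on KO ALDO. Both KO arrays were lower than both WT arrays, with differences of -0.60 under control treatment and -0.74 under ALDO. Its second probe set was dim (46.8 to 67.0) and gave 0.40 and -0.20, so the direction under control treatment rested on 1 probe set. Kcnj1, the potassium channel that returns potassium to the lumen for this cotransporter, went the other way, with intensities of 3893, 5136, 5244 and 6693 in the same order. It was higher in KO by 0.40 and 0.35, and its second probe set was higher by 0.31 and 0.72.

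Umod, the urinary protein uromodulin that thick limb cells secrete, had 30426, 30615, 27142 and 29223 and differed between genotypes by 0.01 and 0.11. Its arrays overlapped between the genotypes, and both ALDO arrays were lower than both control arrays. Casr, the calcium-sensing receptor, had 399, 447, 353 and 494, and Bsnd, which encodes the chloride channel subunit barttin, had 236, 302, 241 and 361. Both were higher on the KO arrays, Casr by 0.16 and 0.46 and Bsnd by 0.34 and 0.55. The second Casr probe set was dim (12.1 to 57.0) and gave -1.38 and 0.01, so the direction for Casr rested on 1 probe set. The median of the 5 thick limb genes was 0.16 in KO control against WT control and 0.35 under ALDO, and it spans members of opposite direction.

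In the distal convoluted and connecting tubule, Trpm6, the channel for magnesium entry, had 564 on the WT control array, 1148 on KO control, 846 on WT ALDO and 1856 on KO ALDO. The 2 KO arrays were the highest, and within each genotype the ALDO array was the higher one. Its second probe set was dim (82.9 to 189) and gave 0.09 under control treatment and 0.83 under ALDO, so the size under control treatment rested on 1 probe set. Slc8a1, the exchanger that moves calcium out of the cell on the blood side, had 2954, 6136, 4386 and 6206. It was higher in KO by 1.05 under control treatment and 0.50 under ALDO, and 0.76 and 0.44 in its second probe set, while the dimmest of its 4 gave 0.79 and -0.20. Slc8a1 is also expressed in smooth muscle and heart, and of the 4 smooth muscle markers among the counted genes 3 were above 0 in KO control (median 0.41). The part of smooth muscle in the Slc8a1 difference was not tested.

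Calb1, which encodes the calcium-binding calbindin of these segments, had 14472, 21254, 18159 and 23829. Both KO arrays were above both WT arrays, with differences of 0.55 and 0.39. All 4 of its probe sets were higher in KO, by 0.55 to 1.14 under control treatment and by 0.39 to 1.27 under ALDO. The brightest probe set of the 4 gave the smallest difference in each case. Kcnj10, a potassium channel of the blood side of distal convoluted tubule cells, had 622, 1057, 661 and 1169. It was higher in KO by 0.75 and 0.81 and differed between treatments by 0.09 in WT and 0.14 in KO. Kcnj16, its channel partner, had 8803, 8286, 7874 and 7534 and was slightly lower in KO (-0.09 and -0.06).

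Slc12a3, the thiazide-sensitive sodium chloride cotransporter of the distal convoluted tubule, had 8323, 8400.4, 10274 and 13104. The 2 control arrays were alike (difference 0.01), and KO ALDO was higher than WT ALDO by 0.35. Egf, the precursor of epidermal growth factor, which stimulates magnesium uptake here, had 19605, 15773, 21272 and 15218, and both KO arrays were the lower ones (-0.31 and -0.48). Klk1, the kallikrein that the connecting tubule releases into urine, had 32138, 40833, 33407 and 41369 and was higher in KO by 0.35 and 0.31, with -0.15 and 1.14 in the dimmest of its 4 probe sets. Pvalb, the calcium buffer parvalbumin of the early distal convoluted tubule, had 796, 951, 1249 and 1118, and its genotypes overlapped (0.25 and -0.16). For the 9 genes measured in these segments the median was 0.35 under control treatment and 0.35 under ALDO, with 7 and 6 of 9 above 0.

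All 3 kinases on the list, which set the activity of these cotransporters, were measured. Wnk1 had 10972, 13874, 14179 and 17139, and Stk39, the kinase downstream of the Wnk kinases that phosphorylates both cotransporters, had 330.0, 466, 455 and 614. For both, WT control was lowest and KO ALDO highest, with differences between genotypes of 0.34 and 0.27 for Wnk1 and 0.48 and 0.42 for Stk39. The second probe set of Wnk1 gave 0.05 and -0.09. Wnk4 had 2288 on the WT control array, 3309 on KO control, 2796 on WT ALDO and 1950.5 on KO ALDO. It was the higher of the pair in KO under control treatment (0.53) and the lower under ALDO (-0.52), on its only probe set.

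Among intercalated cell genes, Rhcg, which carries ammonia into the urine, had 975 on the WT control array, 2599 on KO control, 1459.9 on WT ALDO and 3273 on KO ALDO. Both KO arrays were over 2-fold higher than the WT array of the same treatment, by 1.40 (2.64-fold) and 1.16 (2.23-fold). Rhbg, the related ammonia transporter of the blood side, had 652, 1361, 829 and 1208, with differences of 1.04 and 0.54. Slc26a4, the chloride-bicarbonate exchanger pendrin of the B-type cell, had 856, 1772, 1539.8 and 2115. WT control stood apart from the other 3 arrays, and the differences between genotypes were 1.04 under control treatment and 0.45 under ALDO. Slc4a9, an anion exchanger of the same cell type, had 236, 397, 489 and 605 and was higher in KO by 0.71 and 0.30.

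Foxi1, the transcription factor on which intercalated cells depend, had 246, 336, 312 and 411 and was higher in KO by 0.43 and 0.38. Tmem213 had 2631, 3193, 3358 and 4245, with differences of 0.28 and 0.34. Slc4a1, the chloride-bicarbonate exchanger of the acid-secreting A-type cell and of red cells, did not share this direction, with 417, 417, 792 and 643. Its genotype difference was -0.00 under control treatment and -0.30 under ALDO, with 0.13 and -0.45 in its second probe set. All 7 measured erythroid markers were in the dimmer 50% of genes, with a summed intensity of 416 on the WT control array, 338 on KO control, 298 on WT ALDO and 344 on KO ALDO. The part of red cells in the Slc4a1 values was not tested. For the 7 intercalated cell genes the median was 0.71 under control treatment and 0.38 under ALDO, with 6 of 7 above 0 in each.

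Proton pump subunits listed for intercalated cells differed from each other. Atp6v0d2, a subunit of the membrane part of the pump, had 296 on the WT control array, 646 on KO control, 547 on WT ALDO and 739 on KO ALDO. It was higher in KO by 1.09 under control treatment and 0.42 under ALDO, and by 0.41 and 0.62 in its second probe set. Macrophage markers were higher in KO too (medians 1.51 and 1.23), and the part of macrophages in the Atp6v0d2 difference was not tested. Atp6v1b1, the subunit whose loss causes distal renal tubular acidosis with deafness, had 973, 918, 1112 and 1149, and its genotypes overlapped (-0.08 and 0.05). Atp6v0a4 had 1639, 2041, 1785 and 1893, with differences of 0.31 and 0.08. Of 15 further proton pump subunits, most of them found in all cells, 11 were above 0 under control treatment and 4 under ALDO, with medians of 0.09 and -0.03.

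Both counted principal cell genes of the list were lower in KO. Fxyd4, a regulator of the sodium pump in the collecting duct that corticosteroids induce, had 2556 on the WT control array, 1763 on KO control, 3446 on WT ALDO and 1729.9 on KO ALDO. Both KO arrays were alike and below both WT arrays, by -0.53 under control treatment and by -0.99 under ALDO. Avpr2, the vasopressin receptor that controls water uptake, had 660.4, 546, 801 and 696, with differences of -0.27 and -0.20. Elf5, a transcription factor of principal cells, was dim, with 41.9, 21.3, 82.1 and 19.6, and a second dim probe set had 25.8, 29.6, 2.11 and 6.46. The 2 probe sets had opposite signs between genotypes under both treatments, and no direction is given for Elf5.

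Of 15 further principal cell genes 13 were among the brighter genes, with 11 above 0 in KO control (median 0.48) and 10 in KO ALDO (median 0.13). The water channels differed among themselves. Aqp2 and Aqp3 had -0.09 and -0.43 in KO control and -0.73 and -0.93 in KO ALDO, whereas Aqp4 had 1.23 and -0.24. Subunits of the epithelial sodium channel went the other way: Scnn1g was higher in KO by 1.21 and 1.06 and Scnn1a by 0.51 and 1.10. These 5 were named after their values were seen.

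The other epithelial genes held the largest differences. Spink8 had 364 on the WT control array, 1819 on KO control, 612 on WT ALDO and 2318 on KO ALDO. Both KO arrays were far above both WT arrays, by 2.27 (4.83-fold) under control treatment and by 1.90 (3.72-fold) under ALDO, on its only probe set. Kcne1, which modulates voltage-gated potassium channels, had 125, 498, 247 and 559. The differences were 1.87 and 1.13, and 1.45 and 0.75 in a second probe set, and as the 125 in WT control was under the 247 for counted genes, the size of the first is uncertain.

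Ckmt1 had 314, 823, 389 and 900.2, with differences of 1.34 and 1.18, and 1.09 and 0.64 in a second probe set. Muc1, a mucin of the apical membrane of distal epithelium, had 243, 496, 381 and 616, higher in KO by 0.99 and 0.67. Fxyd2, the gamma subunit of the sodium pump, had 28218, 28165, 27951 and 27853. Its brightest probe set differed by no more than 0.02 in size between any pair of arrays compared. Differences were small among very bright probe sets in general: their SD was 0.164 under control treatment over the 192 genes with a mean intensity of 15000 or more, against 0.230 over the 739 genes from 5000 to 15000. Umod, Egf, Calb1, Klk1 and Fxyd2 were in that brightest class.

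WT ALDO was set against WT control to compare aldosterone and salt with control treatment in wild-type mice. Intercalated cell genes were higher together on the WT ALDO array: all 7 were above 0, with a median of 0.57, led by Slc4a9 (1.002) and Slc4a1 (0.90), with Slc26a4 at 0.84 and the pump subunit Atp6v0d2 at 0.85. The second bright probe set of Atp6v0d2 gave 0.14, and the other pump subunits Atp6v1b1 and Atp6v0a4 had 0.19 and 0.12. Of the 34 genes 1 was at least 2-fold higher (Slc4a9), against 0.33% of all genes, and 0 were 2-fold lower, against 0.352%. In all 29 of 34 were above 0 and 5 below (51.9% and 48.1% of all genes were), with a median of 0.33 against 0.01. Slc12a1 (-0.18), Casr (-0.17) and Umod (-0.16) were lowest. This comparison and that of KO control with WT control share the WT control array. Slc4a9 was only just past 2-fold, and quantile normalization, centring on the median or a pseudocount of 64 took it below. The median difference of WT ALDO from WT control over 18 probe sets of spiked-in control RNA was -0.27, and the part of this in the differences was not tested.

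KO ALDO was set against KO control for the same treatment in knockout mice. Of the 34 genes 0 were at least 2-fold higher, against 0.572% of all genes, and 0 were 2-fold lower, against 0.132%. Trpm6 (0.69), Slc12a3 (0.64), Slc4a1 (0.60), Slc4a9 (0.59) and Tmem213 (0.41) were highest, and Wnk4 (-0.76) and Slc12a1 (-0.33) lowest. The second bright probe set of Slc4a1 gave 0.26. In all 25 of 34 were above 0 and 9 below, against 52.3% and 47.7% of all genes, and the median was 0.21 against 0.01. The median of the 7 intercalated cell genes was 0.33, with 6 above 0 and Rhbg at -0.17. With a gene's probe sets averaged, Slc12a3 was at 1.76, through a dim second probe set (16.1 to 222).

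**Figure D3:**
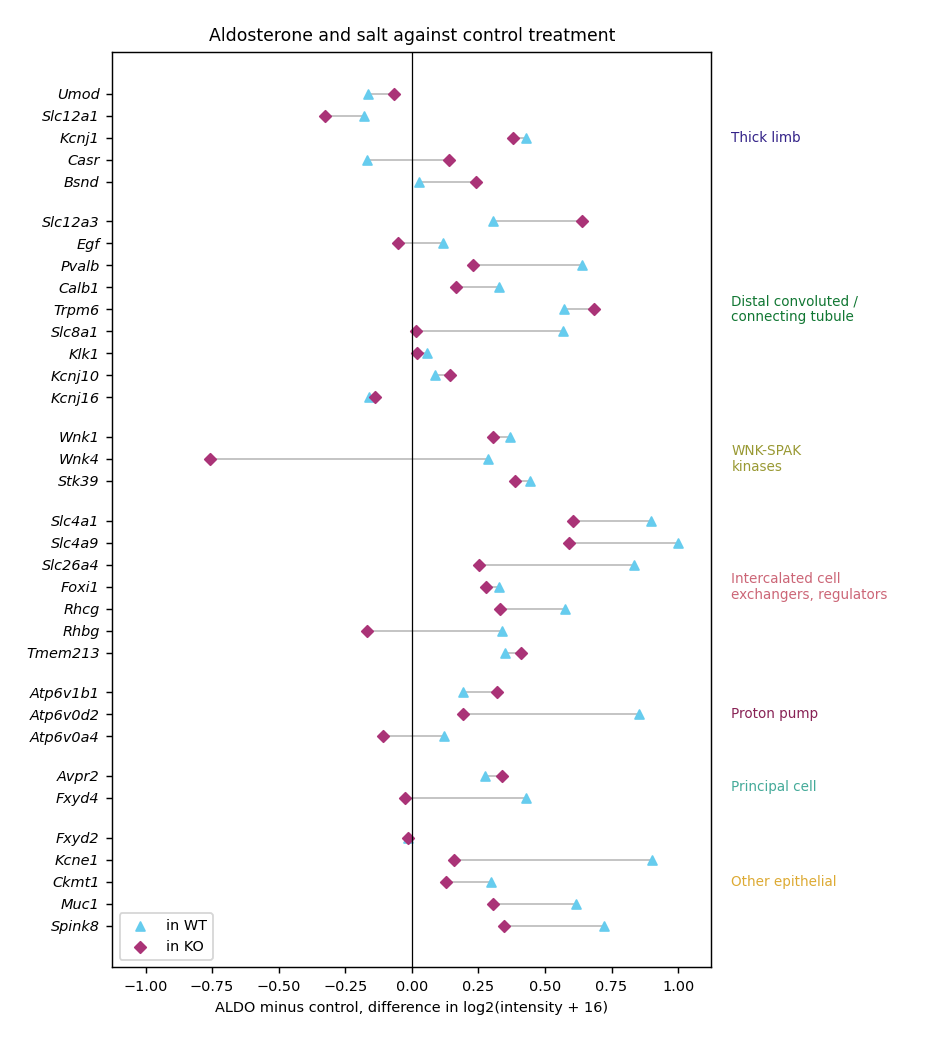
Difference between ALDO and control treatment in log2(intensity + 16) for each of the 34 counted genes, in WT (triangles) and KO (diamonds), by segment. The 7 intercalated cell genes lie between 0.33 and 1.002 in WT and between -0.17 and 0.60 in KO, and Wnk4 lies at 0.29 in WT and -0.76 in KO.

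The 2 treatment comparisons share no array, and 24 of the 34 genes were above 0 in both, against 33.2% of all genes. For 9 genes both ALDO arrays lay above both control arrays, against 17.1% of all genes: Kcnj1, Slc12a3, Pvalb, Wnk1, Slc4a1, Slc4a9, Tmem213, Atp6v1b1 and Avpr2. For Umod, Kcnj16 and Fxyd2 both lay below, against 16.1%. The second bright probe set of Kcnj1 was lowest on the WT ALDO array, with treatment differences of -0.05 in WT and 0.35 in KO. The difference between the ALDO effects in KO and in WT, which is also that between the genotype differences under ALDO and control treatment, was below 0 for 24 of the 34 genes and above 0 for 10 (49.4% and 50.6% of all genes), with a median of -0.15 against 0.00. Wnk4 was the 1 gene past 2-fold, at -1.04 (0.33% of all genes were 2-fold lower and 0.594% higher). Kcne1 (-0.74), Atp6v0d2 (-0.66), Slc26a4 (-0.58), Slc8a1 (-0.55) and Rhbg (-0.51) followed, though the second bright probe set of Atp6v0d2 gave 0.22, and Slc12a3 (0.34) was highest. Apart from Wnk4, these low ones are genes for which WT control was the lowest array, and that array enters the difference.

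The listed genes were then compared with further genes listed for the same segments and with other cells of the preparation. Of 26 further thick limb and distal tubule genes 19 were among the brighter genes, and their medians were -0.05 in KO control and -0.07 in KO ALDO, with 9 and 8 above 0. Of these, 0 were 2-fold higher in KO, and the transcription factor gene Irx1 was 2-fold lower in KO ALDO (-1.01). The highest in both comparisons were S100g (0.64 and 0.81) and Cldn8 (0.57 and 0.55), so the list held genes of both directions. The 7 bright further intercalated cell genes had medians of 0.34 and 0.03, but Car15, a carbonic anhydrase, was over 2-fold lower in KO under both treatments (-1.14 and -1.30) and the anion exchanger Slc26a7 had -0.80 and -0.60. Proximal tubule markers had medians of -0.21 and -0.22, with 3 and 2 of 14 above 0, podocyte markers -0.18 and 0.14, and endothelial markers 0.47 and 0.52 with all 8 above 0 in both. The 5 mesangial markers had 0.35 and 0.44, the 4 bright smooth muscle markers 0.41 and 0.49, and the 2 measured sodium pump subunits 0.09 and 0.10. Gata3 was in both the mesangial and the principal cell list. Likewise, Aqp1 was in both the proximal tubule list and that of the thin limb and urothelium. Of 9 macrophage markers 5 were among the brighter genes, all higher in KO, with medians of 1.51 and 1.23, and their list summed to 5057 and 5076 on the WT arrays and to 9856 and 11086 on the KO arrays. Of the 4 bright markers of the thin limb and urothelium 3 were above 0 in both (medians 0.53 and 0.79), with the tight junction gene Cldn4, which the collecting duct also expresses, at 1.91 and 1.72. Of 6 neutrophil markers 1 was bright, S100a8, at 0.26 and 3.44. Endothelial, mesangial, smooth muscle, macrophage, and thin limb and urothelium markers had medians above 0 in both genotype comparisons, as the listed genes did. The part of these cells in the result was not tested. Under ALDO in WT the medians were 0.10 for the further thick limb and distal genes, 0.38 for principal cell genes, 0.16 for the further intercalated cell genes and -0.08 for proximal tubule markers. They were 0.62 for smooth muscle, 0.37 for macrophage, 0.33 for mesangial and 0.25 for endothelial markers and 0.10 for podocyte markers. Under ALDO in KO the medians were 0.06 for the further thick limb and distal genes, -0.04 for principal cell genes, 0.06 for the further intercalated cell genes and -0.10 for proximal tubule markers. There they were 0.97 for smooth muscle, 0.43 for endothelial, 0.27 for podocyte, 0.19 for mesangial and 0.16 for macrophage markers. The part of these other cell types in the treatment differences was not tested. Whether differing amounts of tubule material on the arrays played a part in the genotype differences was not tested.

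**Figure D4:**
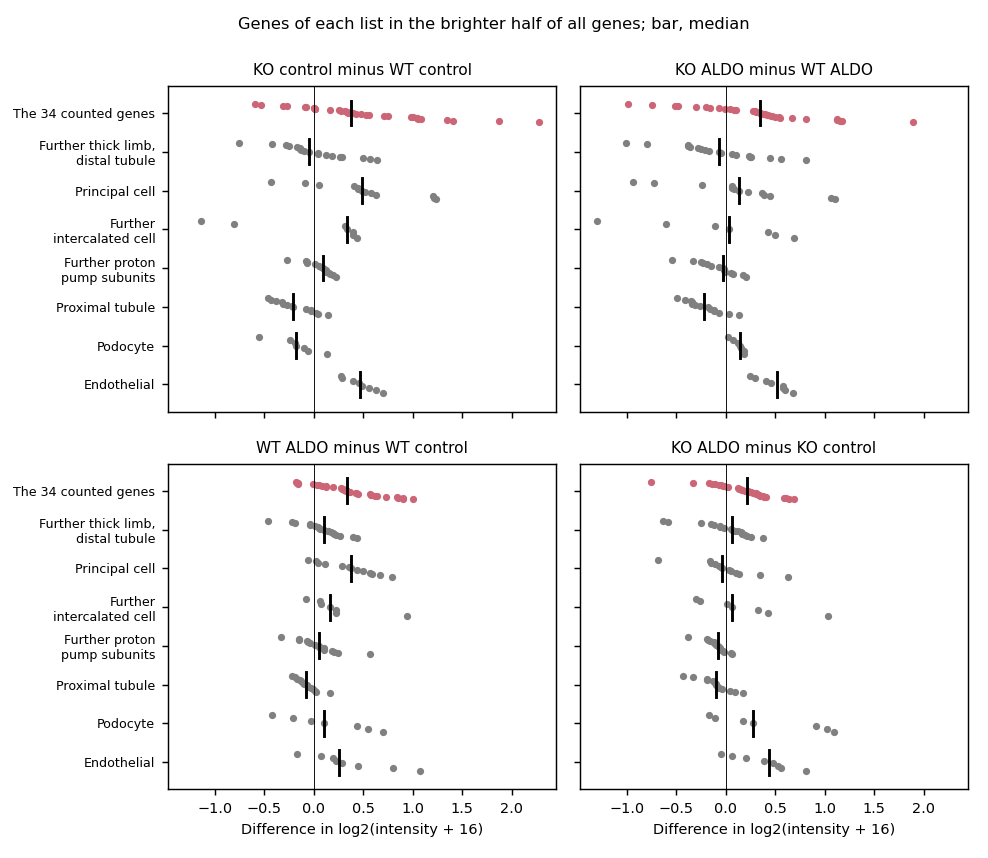
Differences in log2(intensity + 16) for the 34 counted genes (red) and for 7 other gene lists (grey), with 1 panel per comparison, 1 point per gene in the brighter 50% and a bar at each median. Under control treatment the 34 genes have a median of 0.37 and the proximal tubule markers one of -0.21. Further lists are not shown, among them the mesangial, smooth muscle and macrophage markers (medians 0.35, 0.41 and 1.51 in KO control against WT control).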

How the data were processed

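Total glomerular RNA was labelled with a 3′ IVT kit and hybridised to 1 Affymetrix mouse array (45101 probe sets) per group, per the labels' protocols. The deposited values are intensities on a linear scale, which the authors had scaled to the same trimmed mean on each array (500.003 after leaving out the highest and lowest 2%), as found from the values. Affymetrix Expression Console is named in the submitters' processing notes. Its algorithm and version are not stated there. Such scaling would not show a shift shared by all genes. Genes were named from the platform's annotation: 34958 probe sets had 1 symbol, 932 had several and 9211 were not listed. The symbols of all 35 measured genes matched a RefSeq table (GRCm38.p6) by Entrez identifier.

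Intensities were transformed as log2(intensity + 16), which understates differences of dim genes. Genes with a mean of 8.04 or more on this scale, the brighter 50%, were counted. Each comparison is a difference between arrays with a count past 2-fold, beside the same over all 9097 genes. The list was divided into 7 segment groups, with a median where at least 3 genes were counted. All listed genes could be named, and genes of other lists where a result turned on them. The members and lists were chosen with earlier results of these data known. The steps were tested on simulated data with known shifts. Alternatives were quantile normalization, centring on the median, pseudocounts of 1 and 64, no filter, the brightest 25%, the mean of all probe sets and the next-brightest probe set. Promoters came from RefSeq (GRCm38.p6). Python 3.11.15, numpy 2.4.6, pandas 2.3.3 and matplotlib 3.10.9 were used.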

Additional observations from a re-analysis of the deposited data

Results flagged for a closer look

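Wnk4, the kinase upstream of Stk39 that acts on the sodium chloride cotransporter, stood out because its differences had opposite signs in the compared conditions. KO was higher than WT by 0.53 under control treatment, and the difference was -0.52 under ALDO. Put the other way, ALDO was higher than control by 0.29 in WT, and the difference was -0.76 in KO. Its array values were 2288 on the WT control array, 3309 on KO control, 2796 on WT ALDO and 1950.5 on KO ALDO. Both of the opposite pairs describe the same 4 arrays, the difference between them was not tested, and Wnk4 had a single probe set. It was the only counted gene of the list with opposite signs of at least 0.25 in both conditions.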

How the results depend on the processing

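No replicate was left out, and no result has a replicate error. No paired analysis was possible because each group held 1 array. Of 285 recomputed counts and medians, 262 stayed within 1.5 times (counts) or 0.2 (medians) of the value reported, and none of the medians of all listed genes moved by more. Of 1195 recomputed differences of single genes 41 moved by more than the SD between probe sets of a gene (0.246 to 0.328), 22 with the mean of all probe sets, 18 with the next-brightest and 1 (Kcne1) with a pseudocount of 64, and 0 of those past 2-fold changed sign.

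Counts past 2-fold depended most on the processing. In KO control against WT control the count of 9 became 4 with centring on the median, 5 with a pseudocount of 64 and 2 of 13 genes with the next-brightest probe set. Of the 9, Spink8, Rhcg, Rhbg, Slc26a4 and Trpm6 had no second bright probe set and could not enter that last count. In KO ALDO against WT ALDO the count of 5 higher became 3 higher and 1 lower (Fxyd4, -1.13) with centring on the median, 3 of 22 in the brightest 25%, 2 with the mean of all probe sets and 0 of 13 with the next-brightest probe set. In WT ALDO against WT control the count of 1 (Slc4a9) became 0 with quantile normalization, centring and a pseudocount of 64. It was also 0 in the brightest 25% and with the next-brightest probe set. Slc4a9 was not among the brightest 25% and had a single probe set, so it could not enter those counts. With the mean of all probe sets the count was 1 in KO ALDO against KO control and 2 for the difference of ALDO effects, through Slc12a3. With the next-brightest probe set the latter was 0, but Wnk4, with a single probe set, could not enter that count.

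Of the segment medians, in the brightest 25% that of the intercalated cell genes was 1.04 in KO control against WT control, and those of the thick limb genes were 0.11 in KO ALDO against WT ALDO and -0.067 in KO ALDO against KO control. With the mean of all probe sets the WNK kinases had 0.088 in WT ALDO against WT control and the other epithelial genes 0.91 in KO ALDO against WT ALDO. With the next-brightest probe set the distal convoluted and connecting tubule genes had 0.57 and the other epithelial genes 1.09 in KO control against WT control, and the latter 0.64 in KO ALDO against WT ALDO and 0.41 in WT ALDO against WT control. Fewer genes entered these medians in the brightest 25% and with the next-brightest probe set. For the other changes the cause was not tested.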

Other observations

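Fxyd2 had 4 probe sets that gave different pictures of the sodium pump's gamma subunit. The 3 brighter ones differed between genotypes by -0.11 to -0.00 under control treatment and by -0.05 to -0.01 under ALDO. The dimmest had 599 on the WT control array, 271 on KO control, 601 on WT ALDO and 167 on KO ALDO, lower in KO by -1.10 and -1.75. It was chosen after its values were seen, and which part of the transcript each probe set reads is not stated in the files.

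Slc4a1 and Slc4a9, exchangers of the A-type and B-type intercalated cell, were both higher under ALDO in both genotypes (0.90 and 0.60, and 1.002 and 0.59). The second bright probe set of Slc4a1 gave 0.83 in WT and 0.26 in KO. Aqp6, a water channel of intercalated cells that is not on the list, was higher too (0.94 and 1.04). It was the highest of the bright further intercalated cell genes in both genotypes. The carbonic anhydrase Car2 differed by 0.06 and -0.30, and the listed Rhbg by 0.34 and -0.17.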
